A study of Mus musculus with 18 samples.

Results

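The carriers that move sodium, chloride and bicarbonate across cell membranes, together with the epithelial sodium channel (ENaC), made up 37 of the 21899 genes in the expression table. Members were taken by gene symbol alone and cover the families Slc4 (bicarbonate), Slc8 (sodium/calcium), Slc9 (sodium/proton) and Slc12 (cation/chloride), with the ENaC genes Scnn1a, Scnn1b and Scnn1g. All 37 were listed, and the rule uses no expression value. RNA was sequenced from liver, epididymal white adipose tissue (eWAT) and quadriceps muscle of male wild-type C57BL/6 mice, an inbred strain, at 18 weeks of age. For 12 weeks the high-salt diet (HSD) mice had eaten a diet rich in sodium chloride and drunk saline, while the control (CON) mice had chow and tap water. Each of the 6 groups held 3 libraries, each from 1 tissue of 1 mouse, and tissues of the same mouse appear in several groups. Values are FPKM, fragments scaled to the length of a gene's exons and to the size of the library, a level that can be set side by side between genes.

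These carriers are secondary transporters: most use the sodium or potassium gradient built by the sodium pump to move another ion. Sodium/proton exchangers and bicarbonate carriers set the pH of the cytosol and of organelles, cation/chloride cotransporters set cell chloride and volume, and sodium/calcium exchangers remove calcium from the cytosol or from mitochondria. The kidney's salt-reabsorbing carriers and ENaC are the members best known for the body's response to dietary salt; the 3 tissues measured here are not kidney, and their carriers are known mainly for housekeeping of the cell itself.

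The promoters of the member with the largest excess in muscle (Slc8a3) and of the member with the smallest unadjusted p in the liver and eWAT diet comparisons (Slc4a4) are shown so that a reader has the sequence beside the values. Both are the 250 bases before a RefSeq transcription start on GRCm38.p6, written 5′ to 3′ on the gene's strand, with the E-box letters CANNTG in capitals. CANNTG reads the same on both strands and occurs in 66.2% of all 32851 RefSeq promoter windows of this length, so its presence in these windows is common.
Slc8a3, chr12:81333181-81333430, minus strand: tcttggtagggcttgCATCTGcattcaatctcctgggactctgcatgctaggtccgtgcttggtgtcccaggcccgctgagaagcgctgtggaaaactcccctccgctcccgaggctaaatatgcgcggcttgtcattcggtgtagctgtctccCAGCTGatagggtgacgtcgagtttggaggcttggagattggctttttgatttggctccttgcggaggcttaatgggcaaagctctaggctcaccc
Slc4a4, the second of 2 listed starts, chr5:89027716-89027965, plus strand: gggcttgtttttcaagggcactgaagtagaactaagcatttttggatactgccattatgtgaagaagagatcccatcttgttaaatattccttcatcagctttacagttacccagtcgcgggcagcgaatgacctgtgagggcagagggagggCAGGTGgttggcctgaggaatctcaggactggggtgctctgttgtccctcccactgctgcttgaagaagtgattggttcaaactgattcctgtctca
The Slc8a3 window held 2 such matches and 11 CG dinucleotides, and the Slc4a4 window held 1 match and 3 CG dinucleotides, against a median of 6 CG dinucleotides over all windows. Neither window held the letters TATAAA on its gene's strand or on the other, which 12.4% of all windows hold. The Slc4a4 window lies inside the gene as annotated (chr5:88886818-89239653). No binding, methylation or use of a transcription start was measured here. Promoter windows were matched for 26 of the 37 members.

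In control mice each tissue expressed a different set of carriers. The libraries are bulk tissue, so that fewer cells of a type and less RNA per cell cannot be told apart. Of the 37 members, 4 averaged at least 5 FPKM in liver, 8 in eWAT and 4 in muscle, while 26, 16 and 22 averaged under 1 FPKM. The summed level of all members was 78.6 FPKM in liver, 116.0 in eWAT and 76.1 in muscle (means of 3 libraries). A group of 12 members averaged under 1 FPKM in every tissue and diet, and it holds the kidney's apical carriers NKCC2 (Slc12a1) and NCC (Slc12a3), with at most 5 and 7 fragments in any library. The beta and gamma ENaC subunits, the bicarbonate carriers Slc4a5, Slc4a9 and Slc4a10, and the exchangers Slc8a2, Slc9a4, Slc9a7 and Slc9b1 belong to the same group, as does Slc12a8.

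**Figure D1:**
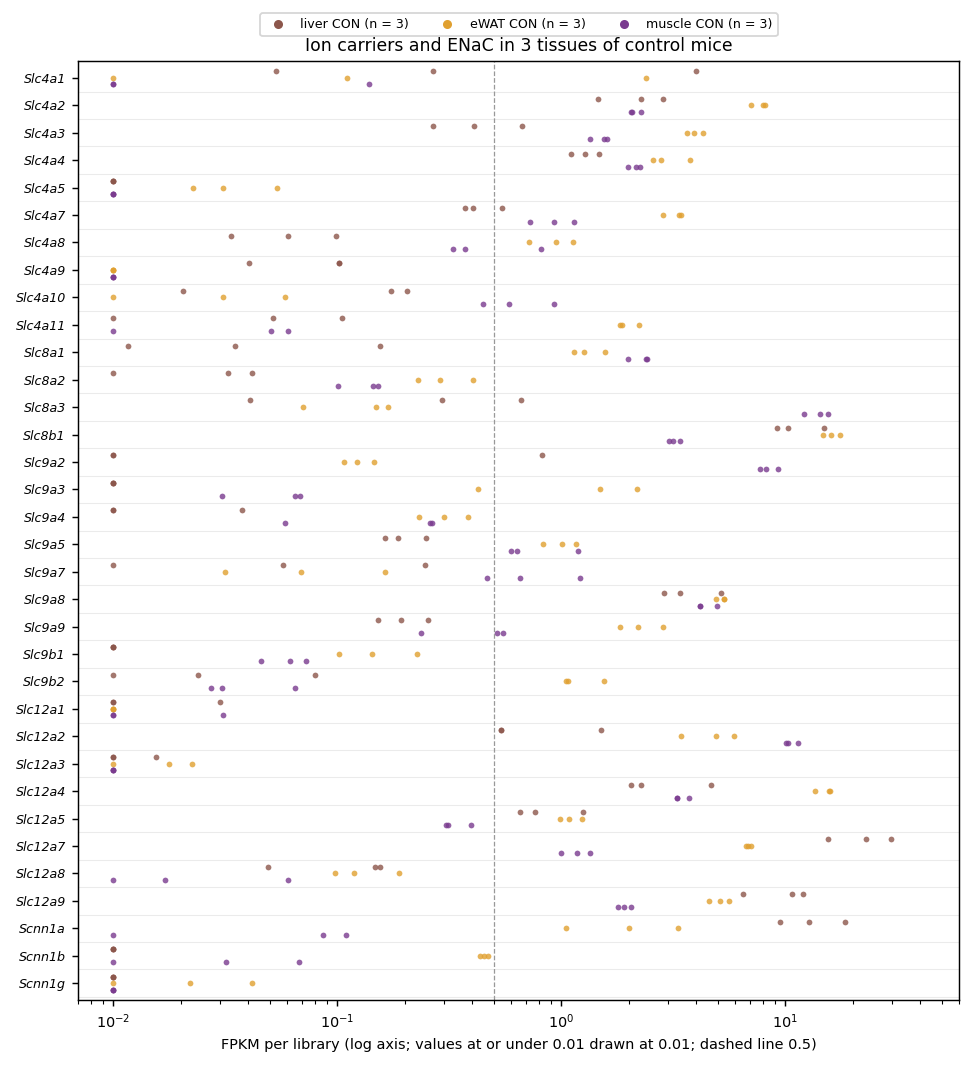
FPKM of members (rows) in the 3 control libraries of liver, eWAT and muscle on a log axis, with the filter level of 0.5 FPKM dashed. Slc12a7 and Scnn1a lead in liver, Slc8b1 and Slc12a4 in eWAT, and Slc8a3 and Slc12a2 in muscle, while Slc12a1 and Slc12a3 stay near the left edge throughout.

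Some libraries stood apart, and several results that rest on them are given with and without them. Liver CON replicate 2 held muscle fibre transcripts, with 13 of 14 markers above every other liver library and a summed level of 5386 FPKM against 3.02 to 7.64. eWAT HSD replicate 2 held epididymal transcripts, with 20 of 20 markers above every other eWAT library (29748 against 1.10 to 16.5 FPKM) and 10 of 10 adipocyte markers below (7783 against 18061 to 24893 FPKM). Transcripts encoded by the mitochondrial genome took 15.4 to 60.8% of fragments in liver, 3.52 to 5.11% in eWAT and 11.3 to 16.5% in muscle, and a large share lowers the FPKM of all other genes. In liver the summed hepatocyte markers ran from 20906 FPKM in CON replicate 1, which had the largest mitochondrial share, to 100778 FPKM in HSD replicate 2, which had the smallest. Red blood cell markers summed to 5626 FPKM in liver CON replicate 2 and 5667 FPKM in eWAT CON replicate 1, against at most 842 and 744 in the other libraries of those tissues. Male germ cell markers summed to 643 FPKM in eWAT HSD replicate 1, 318 in replicate 2 and 44.1 in replicate 3, against 3.13 to 59.0 in eWAT CON. Leaving out eWAT HSD replicate 2 therefore does not remove all transcripts of the reproductive tract. Total fragments ranged from 7628072 to 16637489 per library. The study itself analysed 15 of the 18 libraries, without liver CON replicate 2, liver HSD replicate 3 and eWAT HSD replicate 3.

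Potassium/chloride cotransporters let chloride leave the cell with potassium and lower cell volume after swelling. In liver this class was mostly KCC4, encoded by Slc12a7 (chr13:73733094-73816754, mm10): it measured 29.9, 15.6 and 23.0 FPKM in the CON libraries, the highest mean level of any member in any group. It was 7.04, 6.80 and 6.70 FPKM in eWAT and 0.995, 1.35 and 1.18 FPKM in muscle, so the 3 tissues did not overlap. Slc12a7 made up 83.0% ± 3.5 (SD, n = 3) of the class sum in liver, 24.9% ± 1.7 in eWAT and 14.9% ± 1.3 in muscle. KCC1 (Slc12a4), found in most cells, took the largest share in eWAT with 54.5% ± 2.4. In muscle KCC1 held 43.6% ± 0.9. The ratio of Slc12a7 to Slc12a4, which no scaling of a library can move, was 4.0 to 11.2 in the 6 liver libraries, 0.424 to 0.595 in eWAT and 0.292 to 0.363 in muscle.

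Among the sodium-coupled chloride cotransporters, which load chloride into the cell, NKCC1 (Slc12a2, chr18:57878678-57946821) supplied at least 98.7% of the class in every group by mean share. Its FPKM was 10.3, 11.4 and 10.1 in muscle and 5.93, 4.90 and 3.43 in eWAT. In liver it was 0.540, 1.5 and 0.541 FPKM, and the highest of these is the library with muscle fibre transcripts. Without that library the mean in liver CON was 0.540 FPKM.

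Sodium/calcium exchangers separated the tissues by compartment. NCLX (Slc8b1, chr5:120511168-120534024), which returns calcium from mitochondria to the cytosol, made up 96.4% ± 3.5 of the class in liver and 90.1% ± 1.6 in eWAT. In muscle, NCX3 (Slc8a3, chr12:81197915-81333180), a plasma membrane exchanger of skeletal muscle and brain, took 71.4% ± 1.5 and NCLX took 16.3% ± 1.5. Slc8a3 measured 14.4, 15.5 and 12.2 FPKM in muscle CON and 0.0702 to 0.169 FPKM in eWAT CON. In liver CON it was 0.295, 0.661 and 0.0410 FPKM, again with its highest value in the library that held muscle fibre transcripts. NCX1 (Slc8a1), the cardiac exchanger, was 2.40, 2.41 and 1.99 FPKM in muscle CON, and the Slc8a3 to Slc8a1 ratio lay between 4.14 and 7.33 in all 6 muscle libraries.

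Of the plasma membrane sodium/proton exchangers, NHE2 (Slc9a2, chr1:40680574-40769273), best known from the gut epithelium, held 67.8% ± 1.5 of the class in muscle. Slc9a2 measured 9.27, 8.18 and 7.74 FPKM in muscle CON and 0.107, 0.123 and 0.146 FPKM in eWAT CON. In liver it was at 0 in CON replicates 1 and 3 and at 0.825 FPKM (67 fragments) in CON replicate 2, which held muscle fibre transcripts; the liver HSD libraries held at most 3 fragments. NHE3 (Slc9a3), the exchanger of the proximal tubule and gut, was at 0 in all 6 liver libraries and at 2.18, 1.49 and 0.426 FPKM in eWAT CON. Epididymal markers fell in the same order there, at 12.0, 5.94 and 1.10 FPKM. eWAT HSD replicate 2, with 29748 FPKM of these markers, had Slc9a3 at 1.98 FPKM, inside the CON range. The part of epididymal transcripts in the Slc9a3 values was not tested.

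The organellar sodium/proton exchangers adjust the pH of endosomes and the Golgi. Golgi NHE8 (Slc9a8, chr2:167421712-167477000) held 65.7% ± 12.0 of this class in liver and 28.6% ± 2.5 in muscle. Slc9a8 was 5.17, 2.87 and 3.40 FPKM in liver CON, 4.92, 5.34 and 5.33 in eWAT CON and 4.95, 4.17 and 4.18 in muscle CON, so its levels overlapped between tissues. The NHA antiporter Slc9b2 reached 1.06 to 1.55 FPKM in eWAT CON and at most 0.0795 FPKM in the liver and muscle CON libraries.

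In FPKM the main bicarbonate carriers were highest in eWAT. The chloride/bicarbonate exchanger AE2 (Slc4a2, chr5:24423837-24440950) measured 7.05, 7.95 and 8.12 FPKM there, AE3 (Slc4a3, chr1:75546266-75562172) 3.63, 3.93 and 4.31, and the sodium/bicarbonate cotransporter NBCe1 (Slc4a4, chr5:88886818-89239653) 3.77, 2.79 and 2.58. All 3 were above their highest liver and muscle CON value in every eWAT CON library. Relative to the median gene the excess over liver was 0.27 for Slc4a2 and 0.89 for Slc4a3 on the log2 scale. Scaling decided whether these 2 were called. Slc4a4 was higher than in liver by 0.98 in FPKM, was not called, and stood at −0.38 relative to the median gene. For Slc4a2, 13.7% of the exon bases lie opposite exons of Fastk, and the strand setting of the counting is not given in the sources used here. AE1 (Slc4a1, chr11:102348824-102366203), the band 3 protein of the red cell membrane, was 4.01 FPKM in liver CON replicate 2 and 2.38 FPKM in eWAT CON replicate 1, the libraries with the highest red blood cell sums. Elsewhere it was at most 0.384 FPKM.

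ENaC needs its alpha subunit for a pore and all 3 subunits for full current. Alpha ENaC (Scnn1a, chr6:125320659-125344943) was the second highest member in liver CON at 18.4, 9.49 and 12.7 FPKM, while Scnn1b (chr7:121865038-121918514) and Scnn1g (chr7:121734479-121768475) were listed at 0 in all 6 liver libraries. In eWAT CON, Scnn1a was 3.34, 2.01 and 1.05 FPKM and Scnn1b 0.474, 0.451 and 0.434 FPKM. Epididymal markers summed to 12.0, 5.94 and 1.10 FPKM in these libraries, in the same order. eWAT HSD replicate 2, with 29748 FPKM of these markers, had Scnn1a at 12.8 and Scnn1b at 0.803 FPKM. The part of epididymal transcripts in the ENaC values was not tested. In muscle CON, Scnn1a lay between 0 and 0.110 FPKM, which is 0 to 6 fragments, so its level there was at the limit of detection. No library of any tissue held all 3 subunits at 1 FPKM or more.

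The order of the levels within a tissue was firm in muscle and loose in liver. In muscle the ranges of Slc8a3, Slc12a2, Slc9a2 and Slc9a8, in falling order, did not overlap. In eWAT, Slc8b1 (16.1 FPKM) and Slc12a4 (15.03) overlapped in range and lay above Slc4a2 (7.71) in every library. In liver the 4 leading members, Slc12a7 (22.8 FPKM), Scnn1a (13.5), Slc8b1 (11.5) and Slc12a9 (9.75), each overlapped with the next, and only the step from Slc12a9 down to Slc9a8 (3.82) was free of overlap.

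**Figure D2:**
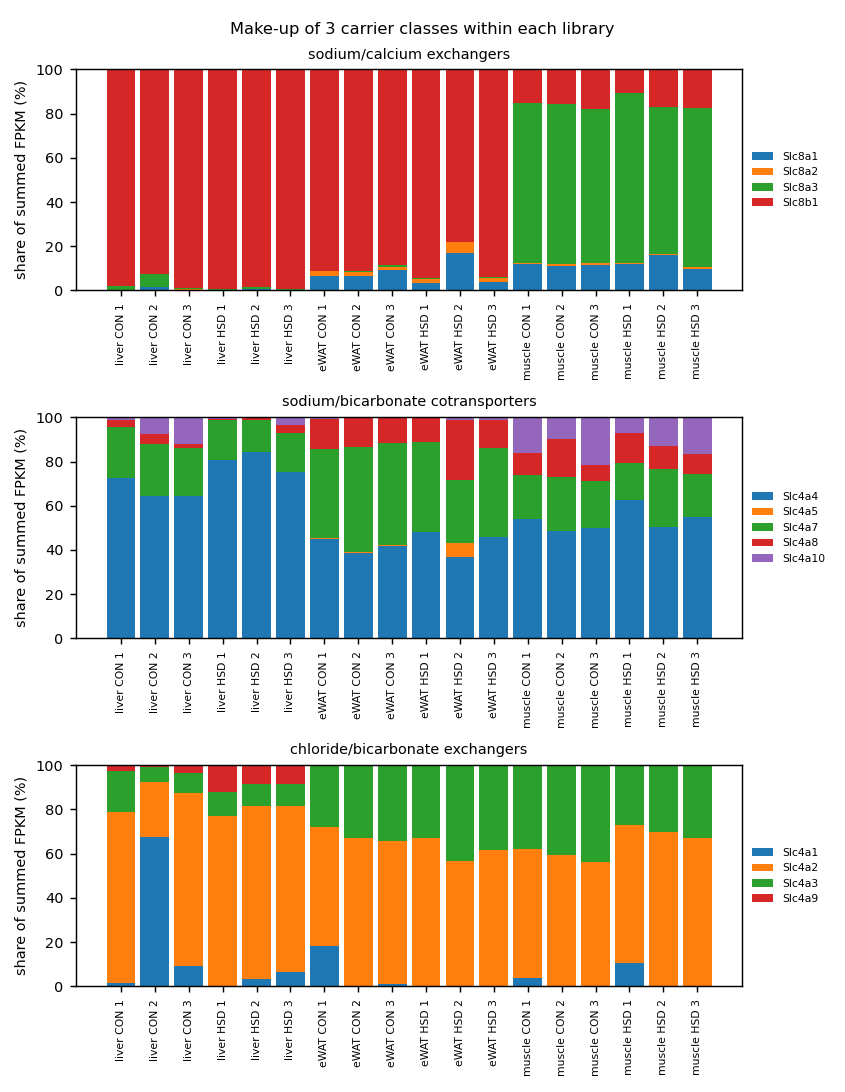
Share of each member in the summed FPKM of its class (y axis, percent) in each of the 18 libraries (bars), for the sodium/calcium exchangers, sodium/bicarbonate cotransporters and chloride/bicarbonate exchangers. Slc8a3 fills 66.2 to 76.9% of the sodium/calcium exchangers in muscle, and Slc4a4 fills 75.2 to 84.2% of the sodium/bicarbonate cotransporters in liver HSD against 64.3 to 72.5% in liver CON.

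The differences between tissues were tested in the CON libraries with limma on log2(FPKM + 0.5), with 23 members passing the filter of a mean of 0.5 FPKM, and a member was called where its log2 difference reached 1 and its p, adjusted by Benjamini-Hochberg, stayed under 0.05. This scale understates the difference of low genes. Because FPKM are shares of a library, the median gene itself differed by 1.36 (log2) between eWAT and liver, 0.52 between muscle and liver and −0.93 between muscle and eWAT. Against liver, 13 of 23 members were called higher and 2 lower in eWAT, where 62.1% and 7.26% of all 12637 genes were. In muscle against liver, 7 members were higher and 4 lower, beside 35.1% and 15% of all genes. In muscle against eWAT, 3 members were higher and 11 lower, beside 7.98% and 46.9%. These shares of members ran near those of all genes.

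Single members went well beyond the median gene. Slc8a3 was higher in muscle by 4.19 (SE 0.25) than in liver and by 4.53 (SE 0.25) than in eWAT, and Slc9a2 by 3.68 (SE 0.33) and 3.83 (SE 0.33), all on the log2 scale. Without liver CON replicate 2 the values against liver were 4.46 and 4.15. Slc8a3 and Slc9a2 passed the filter only through muscle, so the selection itself favoured an excess there. Slc8a3 averaged 0.332 FPKM in liver CON and 0.129 in eWAT CON, and Slc9a2 0.275 and 0.125. Against liver, Scnn1a had a log2 difference of −2.46 (SE 0.33) in eWAT and −4.59 (SE 0.33) in muscle, and Slc12a7 one of −1.62 (SE 0.22) and −3.76 (SE 0.22). Slc12a2 was higher in muscle than in liver by 3.10 (SE 0.28). Relative to the median gene, Slc8a3 in muscle was 5.46 higher than in eWAT, and Scnn1a in muscle stood at −5.12 from liver.

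Which of these calls depended on scaling was checked with median-ratio scaling, quantile normalization and FPKM without the mitochondrially encoded genes. Between eWAT and liver, 3 of the 15 called members were called under all 4 scalings, among them Scnn1a and Slc12a7, both lower in eWAT. Between muscle and liver 9 of 11 were, and between muscle and eWAT 7 of 14. Slc12a4, higher in eWAT than in liver by 2.22 in FPKM, fell short of the call under each of the other 3 scalings, with differences of 0.70, 0.95 and 1.23. Slc4a3, higher there by 2.25, fell short only under quantile normalization (0.85), and Slc4a11, a proton-permeable carrier of the cornea, was higher by 2.17. Between muscle and eWAT the log2 difference was −2.20 for Slc4a11, −2.17 for Slc8b1 and −2.14 for Slc12a7, all lower in muscle. In neither comparison was Slc4a11 called under all 4 scalings. It kept its call in all 19 alternative settings in which it passed the filter. Slc4a11 passed only through eWAT, with CON means of 1.98 FPKM there, 0.052 in liver and 0.037 in muscle.

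In eWAT HSD replicate 2, carriers stood apart about as often as all genes did. Of the 23 members that passed the filter in eWAT, 9 were above every other eWAT library there and 9 below, both 39.1%, beside 39.1% and 29.9% of all genes. More than 2 times every other eWAT library were 3 of the 23 members (13%), beside 10% of all genes; of these Slc9a2 passed the filter only through this library. Scnn1a was 12.8 FPKM there, 3.83 times the next highest eWAT library, and Slc4a8, the sodium-driven chloride/bicarbonate exchanger, was 4.07 FPKM. Slc9a2 was 2.50 FPKM against 0.107 to 0.157 FPKM in the other eWAT libraries, and Slc4a5, an electrogenic sodium/bicarbonate cotransporter of epithelia, 0.967 FPKM (69 fragments) against at most 5 fragments elsewhere in eWAT. Scnn1b at 0.803 and Scnn1g at 0.326 FPKM were also at their highest there, as was the chloride channel gene Cftr, a partner of these carriers in epithelia, at 6.11 FPKM against 0.178 to 0.634. Slc12a4 (8.46 FPKM), Slc8b1 (10.7) and Slc12a7 (4.94) were at their lowest. Without this library the eWAT HSD mean of Scnn1a was 1.98 FPKM, beside 2.13 in CON, and with it 5.58.

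**Figure D3:**
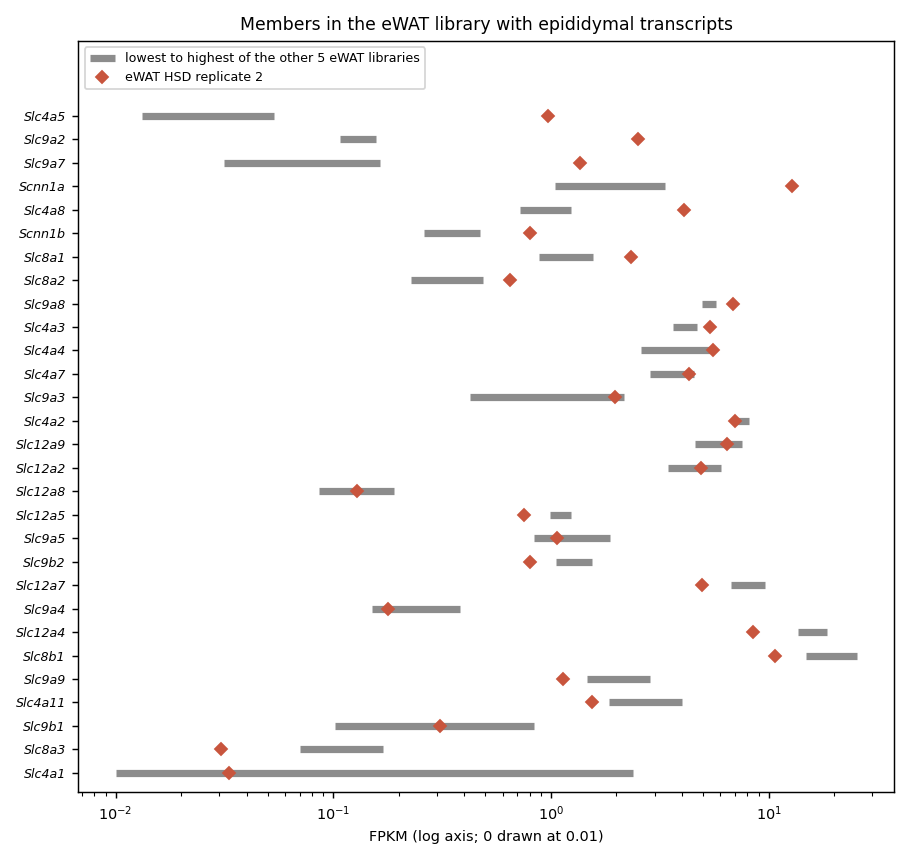
FPKM (log axis, 0 drawn at 0.01) of members in eWAT HSD replicate 2, the library with epididymal transcripts, (diamonds) beside the lowest to highest of the other 5 eWAT libraries (grey bars). Slc9a2, Slc4a5, Slc9a7, Slc4a8 and Scnn1a lie to the right of every other library, and Slc12a4 and Slc8b1 to the left.

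Whether the salt diet moved these carriers was asked in each tissue with 3 HSD against 3 CON libraries. No member passed the limma test at an adjusted p under 0.05 and a log2 fold change of at least 1: 0 of 15 members tested in liver, 0 of 23 in eWAT and 0 of 20 in muscle. Over all genes tested, 0% passed in liver, 0% in eWAT and 0.323% in muscle. At an unadjusted p under 0.05 there were 1 member in liver (5.74% of all genes), 3 in eWAT (16.7%) and 3 in muscle (16.3%).

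NBCe1 (Slc4a4), which moves sodium and bicarbonate together and carries net charge, was the member with the smallest p in both liver and eWAT. In liver it was 1.28, 1.47 and 1.11 FPKM in CON and 3.49, 3.82 and 1.63 FPKM in HSD. The groups did not overlap, although HSD replicate 3 lay close to the CON range. The log2 fold change was 0.90 (SE 0.30, 95% interval 0.19 to 1.61, unadjusted p = 0.0196 and adjusted p = 0.764, limma). In eWAT, Slc4a4 was 3.77, 2.79 and 2.58 FPKM in CON and 5.36, 5.54 and 4.34 FPKM in HSD, again without overlap. Here the log2 fold change was 0.66 (SE 0.17, 95% interval 0.25 to 1.07, adjusted p = 0.172), and 0.60 without HSD replicate 2. In muscle it was 1.99, 2.25 and 2.17 FPKM in CON and 3.26, 1.92 and 2.48 FPKM in HSD, groups that overlapped (0.19, adjusted p = 0.606).

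The liver value of Slc4a4 moved with the make-up of the libraries. With the mitochondrially encoded genes left out its log2 fold change was 0.49 (adjusted p = 0.889), and the mitochondrial share was 60.8, 25.7 and 37.8% in the CON libraries and 16.3, 15.4 and 44.4% in the HSD libraries. In the 4 liver libraries that the study analysed the log2 fold change of Slc4a4 was 1.29 (SE 0.26, adjusted p = 0.0574, limma). With limma's array weights, which count less consistent libraries less, it was 1.29 (adjusted p = 2.19e-05), a setting that called 8.98% of all liver genes in place of 0%. In the whole sodium/bicarbonate cotransporter class, Slc4a4 held 72.5, 64.3 and 64.5% in liver CON and 80.7, 84.2 and 75.2% in liver HSD, a share that no scaling of a library moves and that did not overlap. The class sum in eWAT went from 7.27 ± 1.10 FPKM in CON to 11.9 ± 2.88 in HSD (SD, n = 3), or 10.3 without the epididymal replicate 2, with NBCn1 (Slc4a7), an electroneutral cotransporter, at 3.38, 3.45 and 2.84 FPKM in CON and 4.55, 4.32 and 3.80 in HSD. The Slc4a7 groups did not overlap (log2 fold change 0.34, SE 0.12, adjusted p = 0.256). Adipocyte markers in liver summed to 847 to 1119 FPKM in CON and 1852 to 2208 in HSD, bile duct markers to 21.6 to 47.6 and 40.2 to 90.2, and macrophage markers to 39.2 to 60.7 and 21.1 to 33.9; their part in the Slc4a4 values was not tested.

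**Figure D4:**
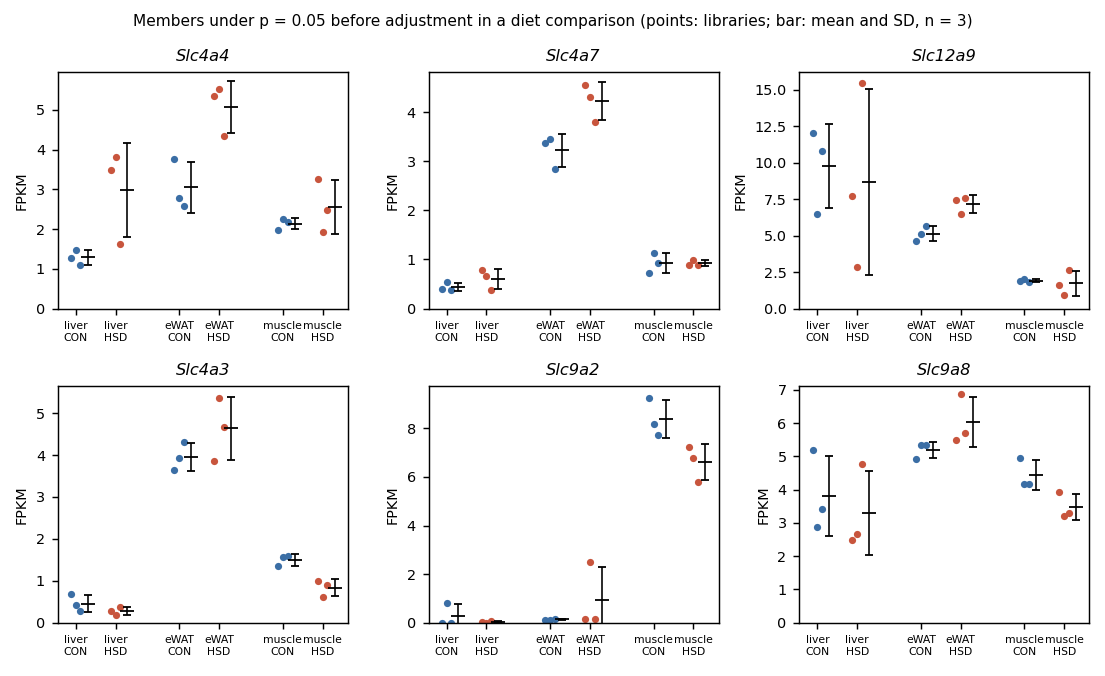
FPKM per library (points, with mean and SD bars, n = 3) by tissue and diet for the members with an unadjusted p under 0.05 in a diet comparison. Slc4a4 lies higher in all HSD than in all CON libraries of liver and eWAT, Slc12a9 and Slc4a7 do so in eWAT, and Slc4a3, Slc9a2 and Slc9a8 lie lower in all HSD libraries of muscle.

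Of the 15 members tested in liver, 11 had a log2 fold change below 0, beside 37.3% of all genes. Their median was −0.20, beside 0.13 over all genes. Without CON replicate 1 the medians were −0.0036 and 0.089. None of the 4 leading liver members passed the diet test, and their directions were mixed. Slc12a7 was 29.9, 15.6 and 23.0 FPKM in CON and 13.4, 5.51 and 22.2 in HSD (log2 fold change −0.87, SE 0.52, adjusted p = 0.764). Scnn1a was 18.4, 9.49 and 12.7 FPKM in CON and 8.73, 5.22 and 15.3 in HSD (−0.53, SE 0.44, adjusted p = 0.764). In both the groups overlapped, with HSD replicate 3 inside the CON range. Slc8b1 was 14.99, 10.3 and 9.22 FPKM in CON and 17.1, 10.8 and 24.1 in HSD, higher by mean but overlapping (0.53, SE 0.37, adjusted p = 0.764), and Slc12a9 had a log2 fold change of −0.39 (SE 0.56, adjusted p = 0.840). Scnn1a ranked the 6 libraries in the order of the mitochondrial share, as 1.71% of 10304 nuclear-encoded liver genes did. In 7 of the 15 members tested the 3 highest libraries were the 3 with the largest mitochondrial share. This held for 11.2% of those genes, a smaller proportion than among the members. The part of the mitochondrial share in these values was not tested. With the study's libraries, which leave out HSD replicate 3 and CON replicate 2, Slc12a7 was −1.55 (adjusted p = 0.0820), Scnn1a −1.12 (0.0990) and Slc12a9, an interactor of cation/chloride cotransporters, −1.18 (0.114). In that set 0 of 14 members were called, beside 0.351% of all genes, and 5 had an unadjusted p under 0.05, beside 31.7%. Of members whose HSD and CON libraries did not overlap, liver had 1 higher among the 15 tested (8.62% of all genes) and 0 lower (3.47%). Slc4a9 also lay higher in every HSD library, at 0.150 to 0.329 against 0.0403 to 0.102 FPKM, but with 3 to 21 fragments a library it was below the filter.

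Within the potassium/chloride class of liver the shares did not overlap between diets for 2 members. KCC4 (Slc12a7) held 81.6, 80.5 and 87.0% of it in CON and 75.3, 76.7 and 77.0% in HSD, and KCC1 (Slc12a4) 12.8, 11.7 and 7.7% in CON and 18.8, 18.2 and 14.6% in HSD. No share over all genes can be set beside this. Of 14 liver members with enough signal for a share, 2 were higher and 2 lower in all HSD libraries, and of 20 such members in eWAT 0 were higher and 1 lower. An exact permutation test of 3 against 3 libraries cannot give a two-sided p below 0.1, and shares within a class are tied to each other.

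In eWAT 18 of 23 members had a positive log2 fold change, as did 59.1% of all genes, with a median of 0.20 beside 0.08 over all genes. Slc12a9 was 4.60, 5.13 and 5.64 FPKM in CON and 7.44, 6.45 and 7.55 in HSD (0.45, SE 0.12, adjusted p = 0.174). In all, 6 of the 23 members were higher in every HSD library (16.2% of all genes) and 0 lower in every one (12.4%). Among the 6 are Slc4a4, Slc4a7, Slc4a8, Slc9a8 and Slc12a9. With the study's libraries, 0 of 25 members were called, beside 0% of all genes, and 4 had an unadjusted p under 0.05, beside 19.6%. Macrophage markers in eWAT summed to 581 to 861 FPKM in CON and 253 to 540 in HSD, and Schwann cell markers to 100.4 to 104.5 and 34.2 to 79.5; their part in the eWAT values was not tested.

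In muscle 14 of 20 members had a log2 fold change below 0, as did 60.8% of all genes, with a median of −0.16 beside −0.06 over all genes. Without HSD replicate 2 the medians were −0.037 and −0.059, so the members' median below that of all genes rested on this library. AE3 (Slc4a3), the chloride/bicarbonate exchanger known from excitable tissues, was 1.34, 1.56 and 1.60 FPKM in CON and 0.987, 0.609 and 0.90 in HSD. The groups did not overlap, and the log2 fold change was −0.60 (SE 0.15, 95% interval −0.94 to −0.25, unadjusted p = 0.0035 and adjusted p = 0.108). AE3 held 38.0, 40.6 and 43.7% of its class in CON and 26.9, 30.2 and 32.7% in HSD, while AE2 (Slc4a2) held 58.0, 59.4 and 56.3% and then 62.6, 69.8 and 67.3%. Of 19 muscle members with enough signal for a share, 2 were higher and 3 lower in all HSD libraries.

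The exchangers NHE2 and NHE8 were also lower in every muscle HSD library. Slc9a2 was 9.27, 8.18 and 7.74 FPKM in CON and 7.25, 6.78 and 5.79 in HSD (−0.33, SE 0.13, adjusted p = 0.252). Slc9a8 was 4.95, 4.17 and 4.18 FPKM in CON and 3.92, 3.2 and 3.31 in HSD (−0.31, SE 0.13, adjusted p = 0.273). With Slc12a4 and Slc12a7 added, 5 of 20 members were lower in every HSD library (15.6% of all genes) and 0 higher (6.72%). Other leading muscle members differed less: Slc8a3 was 18.6, 9.59 and 13.7 FPKM in HSD, on both sides of its CON range, and Slc12a2 (0.07, 95% interval −0.20 to 0.35) had an interval that excludes a doubling. Macrophage markers summed to 55.6 to 89.8 FPKM in muscle CON and 39.7 to 42.9 in HSD; their part in these values was not tested.

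**Figure D5:**
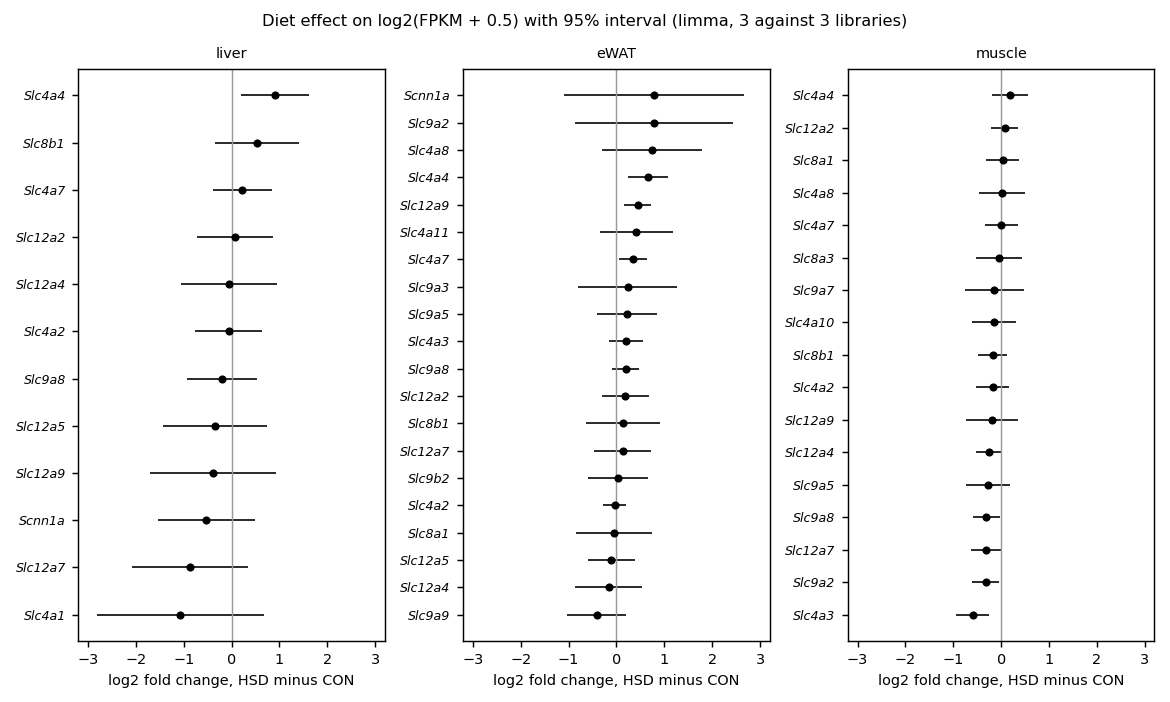
Log2 fold change (HSD minus CON, on log2(FPKM + 0.5)) with its 95% interval from limma for members tested in liver, eWAT and muscle. Most intervals in liver are wider than those in muscle, and those of Slc4a4 in liver and eWAT, Slc4a7 and Slc12a9 in eWAT and Slc4a3, Slc9a2 and Slc9a8 in muscle leave out 0.

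Whether the diet effect differed between tissues was tested with the interaction term of 1 fit over all 18 libraries. No member of the 22 tested was called for eWAT against liver (0.788% of all genes), muscle against liver (0.0612%) or muscle against eWAT (0%). The smallest adjusted p among them for muscle against eWAT was that of Slc4a3, −0.79 on the log2 scale (adjusted p = 0.397, limma). With the study's 15 libraries the diet effects in eWAT and liver differed for 6 of 23 members, among them Slc12a7, Slc12a9, Slc9a8 and Scnn1a, beside 23.8% of all genes. Slc12a7 differed by 1.56 (SE 0.45, adjusted p = 0.0270) and Scnn1a by 2.50 (SE 0.73, adjusted p = 0.0280) in that set. There Slc4a4 was the 1 member called for muscle against liver, −1.10 (SE 0.26, adjusted p = 0.0194), beside 13.7% of all genes, and 0 members were called for muscle against eWAT (1.35%). These calls rest on leaving out 2 liver libraries and 1 eWAT library. eWAT HSD kept replicates 1 and 2, of which replicate 2 held the epididymal transcripts. Scnn1a was 2.59 FPKM in replicate 1 and 12.8 in replicate 2, beside 3.34, 2.01 and 1.05 in eWAT CON. The part of replicate 2 in these calls was not tested.

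A list of 36 regulators and partners of these carriers, such as the WNK, SPAK and SGK kinases, carbonic anhydrases and scaffold proteins, was followed beside them. Of these, 24 were tested in liver, 32 in eWAT and 25 in muscle, and 0 passed both limits in any tissue. Their median log2 fold changes were 0.22, 0.20 and −0.01, beside 0.13, 0.08 and −0.06 over all genes. At an unadjusted p under 0.05 (limma), 1 of 24 was higher in liver, beside 5.74% of all genes in either direction. In eWAT 3 of 32 were higher, beside 16.7%. In muscle 1 of 25 was higher and 2 were lower, beside 16.3%.

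Sgk1 (chr10:21882184-21999903), the salt- and steroid-induced kinase that keeps ENaC and several exchangers at the membrane, was the 1 gene of the list whose adjusted p was under 0.05. It was 68.7, 61.4 and 65.9 FPKM in muscle CON and 42.7, 38.5 and 33.7 in muscle HSD, without overlap (log2 fold change −0.77, SE 0.13, adjusted p = 0.0334, limma), short of a log2 fold change of 1. Leaving out 1 library kept it under 0.05 only for HSD replicate 1, and leaving out any of the other 5 gave an adjusted p of 0.0882 to 0.135. In eWAT it was 17.6, 14.8 and 17.9 FPKM in CON and 31.2, 20.5 and 29.6 in HSD, above the CON range in each library (0.66, SE 0.18, adjusted p = 0.198). Car4 (chr11:84957786-84966044), the membrane-bound carbonic anhydrase that supplies bicarbonate at the cell surface, was 35.4, 28.0 and 28.6 FPKM in eWAT CON and 64.5, 50.9 and 54.0 in eWAT HSD. Its groups did not overlap, and its log2 fold change of 0.87 (SE 0.14) had an adjusted p of 0.114. The kinases that act on the cation/chloride cotransporters differed in where they were highest: in CON, Wnk1 averaged 17.6 FPKM in muscle, 13.1 in eWAT and 2.49 in liver, and Oxsr1 23.5, 17.5 and 2.87. Stk39 (SPAK), which like Oxsr1 is activated by WNK kinases, averaged 7.82 FPKM in eWAT against 0.787 in muscle, and Wnk4 1.42 FPKM in liver and 1.27 in eWAT against 0.0809 in muscle.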

How the data were processed

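RNA was extracted from liver, eWAT and quadriceps, depleted of ribosomal RNA, made into stranded libraries and sequenced as read pairs. By the study's methods, adapters were removed with cutadapt, hisat2 placed the reads on mm10 under an Ensembl annotation, and cuffdiff gave the FPKM that the authors deposited; the submitters' processing notes also name HTSeq 0.9.1, mm9 and mm10. The FPKM table of 18 libraries was used as deposited. Libraries were grouped by their labels into 6 groups of 3. Nothing names separate cages or days, so p-values measure the spread between these mice. The comparisons between tissues and the interaction fit treated tissues of the same mouse as independent. A mouse block was an alternative setting for the CON tissue comparisons only.

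The members and all gene lists were chosen with earlier results of these data known. FPKM were transformed to log2(FPKM + 0.5), genes with a mean under 0.5 FPKM were left out of each comparison, and limma 3.58.1 (R 4.3.3, eBayes with trend, Benjamini-Hochberg over all genes) compared groups within a tissue, CON tissues with each other, and diet effects between tissues in 1 fit. Named members are, per diet comparison, those called or with an unadjusted p under 0.05, per tissue comparison the 5 with the largest called difference, and otherwise the leading members of each class. Low values were whole multiples of 1 fragment for 18317 of 18822 genes above 0 at their exon length (GENCODE M21; within 0.01 fragments) and for 432 more at another length, which gave the fragment numbers and totals of 7628072 to 16637489 per library. The authors' differential expression used DESeq2. Samples with the same replicate number deviated together in muscle (correlations 0.383, 0.177 and 0.184) but not in liver (−0.473, 0.395 and −0.213) or eWAT (−0.197, 0.0608 and 0.414); this comes from the data, not from a stated pairing. Single results of some members are not reported here. The steps were tested on simulated data.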

Additional observations from a re-analysis of the deposited data

Results flagged for a closer look

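With the study's 15 libraries, the diet effect (HSD minus CON, log2(FPKM + 0.5)) differed between tissues for several members, by the interaction term of limma at an adjusted p under 0.05. Between eWAT and liver the difference was 2.50 for Scnn1a, 1.59 for Slc12a9, 1.56 for Slc12a7 and 0.84 for Slc9a8, each higher in eWAT. Between muscle and liver it was −1.10 for Slc4a4, lower in muscle. With all 18 libraries the same test called 0 members, and over all genes with the 15 libraries it called 23.8% and 13.7%. Liver then holds 2 libraries a group, with mitochondrial shares of 60.8 and 37.8% in CON and 16.3 and 15.4% in HSD. eWAT HSD then holds replicates 1 and 2, and replicate 2 held epididymal transcripts. Scnn1a was 2.59 FPKM in replicate 1 and 12.8 in replicate 2. The part of either in these values was not tested.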

How the results depend on the processing

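Each count of called members was recomputed under the alternative settings. Of 278 recomputed counts, 267 stayed within 1.5 times the reported one, including every one that left out a single library. The reported diet and interaction counts were all 0, and a recomputed 0 was taken as staying. Much of this total is therefore 0 matched with 0. With array weights, 1 member was called in liver (Slc4a4; 926 of all genes, 8.98%) and 4 for the muscle minus eWAT diet effect (Slc4a3, Slc12a7, Slc8b1 and Slc4a11; 1390 of all genes, 10.6%). For CON eWAT against liver, median-ratio scaling left 4 members higher and gave 5 lower, and quantile normalization 2 and 5; both remove the offset of the median gene. For CON muscle against eWAT, 5 were higher with no filter, and 4 and 5 were lower with those 2 scalings. With the study's 15 libraries, 6 members were called for eWAT minus liver and 1 for muscle minus liver; the cause was not tested. Leaving out 1 library gave 0 members called in each diet comparison. With the replicate number as a block, 0 members were called in every diet comparison; over all genes it gave 54 calls in muscle, beside 35 without the block. Limma voom on the recovered fragments, an alternative chosen after seeing the data, called 0 members in the diet comparisons. Of 580 recomputed values for 29 single results, 0 changed sign and 6 changed call, among them Slc4a4 in liver and Car4 in eWAT, called with array weights only. With 3 libraries a group, small differences could not be detected, most of all in liver, where most standard errors were larger than in muscle. Larger differences could also go uncalled in liver and eWAT, where the diet test called no gene at all.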

Other observations

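The same mouse number links liver CON replicate 2, eWAT CON replicate 1 and muscle CON replicate 1, and all 3 had the highest red blood cell sum of their tissue, 5626, 5667 and 965 FPKM. Slc4a1, the anion exchanger of red cells, was 4.01, 2.38 and 0.139 FPKM in them. In muscle the highest Slc4a1 value lay elsewhere, at 0.384 FPKM in HSD replicate 1, whose red blood cell sum was 134 FPKM. The scaffold protein gene Slc9a3r1, a partner of NHE3, was 23.4, 71.1 and 60.9 FPKM in liver CON and 120, 142 and 67.9 in liver HSD. These groups overlapped, and its limma p in the liver diet comparison was not under 0.05 before adjustment. Slc9a3 itself was listed at 0 in all 6 liver libraries. Wnk2, a brain-enriched kinase of the WNK family, averaged 12.3 FPKM in muscle CON.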
